A study of Bos taurus with 25 samples.

Results

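The mammary gland of cows that received vitamin B9 (folic acid) and vitamin B12 was compared directly with that of cows that received vitamin B12 alone. By treatment, the groups thus differed in vitamin B9. The members were the mammary arrays labelled B9_B12 (3 cows: 31, 32 and 38) and B12 (4 cows: 36, 37, 40 and 52), 7 of the 25 arrays of the series, and no control array entered the comparison. All cows were lactating Holstein cows whose mammary gland was biopsied 64 ± 3 days after calving. Weekly intramuscular injections of 5 mL held 10 mg of cyanocobalamin in the B12 group, and 320 mg of pteroylmonoglutamic acid with the same dose of cyanocobalamin in the B9_B12 group. Vitamin B12 was thus shared by both groups. Each array held the RNA of a single cow, so the groups held different cows and no value is paired. The 7 arrays lay on 5 slides, 2 of which held both groups, so differences between cows and slides enter the comparison. The study assigned cows to blocks by earlier milk yield, and the labels used here do not give a cow's block. The biopsy is whole tissue, in which fewer cells of a type and less RNA per cell cannot be told apart.

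Folate carries one-carbon units for the synthesis of thymidylate and purines and for the remethylation of homocysteine to methionine. Vitamin B12 is the cofactor of methionine synthase (*MTR*), the step at which the folate cycle and the methionine cycle meet, and of methylmalonyl-CoA mutase (*MMUT*), which brings propionate carbon into the citric acid cycle. In ruminants propionate is a main precursor of glucose, and the lactating gland draws on glucose, amino acids and fatty acids to make lactose, milk protein and milk fat.

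The arrays gave 43653 probes and 27841 different names, of which 11068 are current gene symbols. A level is the log2 normalized intensity of the brightest probe of a gene, and a difference is the mean of the B9_B12 arrays minus the mean of the B12 arrays on that log2 scale. Between 64.4% and 76.5% of the probes were well above background on an array, and correlations between 2 of the 7 arrays ranged from 0.987 to 0.993. Arrays of the same group were no more alike than arrays of different groups, with mean correlations of 0.989 and 0.989. The tissue label was borne out by the milk genes. *LALBA* (α-lactalbumin, the cofactor that turns galactosyltransferase to lactose) lay between 18.45 and 18.52 on all 7 arrays, and at most at 8.33 in the liver of these cows, where the arrays were normalized separately.

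By limma no gene passed both thresholds, an adjusted p no higher than 0.05 and a difference of 2-fold or more, between B9_B12 and B12. The smallest adjusted p was 0.330. An unadjusted p below 0.05 was found for 2002 of 43653 probes (4.59%), 25 of which also differed by at least 2-fold. Read by the brightest probe of each name, this was 1305 of 27841 names (4.69%). Cyber-T, the Bayesian test of the study's methods, counted 8 names (0.0287% of 27841 names) at the same thresholds, 1 higher with B9_B12 (*IGFLR1*) and 7 lower. Among the 7 were *IDO1*, *ISG15* and *PLAC8B*, and the other 4 have no current symbol here. On simulated data Cyber-T called many more unchanged probes than limma did (129 against 10, with 200 probes changed by 1 on the log2 scale). Its calls and adjusted p are thus taken as weaker evidence. The simulation counted calls by adjusted p alone, without the 2-fold threshold, and drew probes with the spread that limma estimated. It therefore does not give the share of false calls among the 8 names. Of 8534 symbols above background on all 7 arrays, 97.8% differed by less than 0.5 on the log2 scale. The arrays of both groups lay apart for 149 of these symbols with B9_B12 higher and for 329 with B9_B12 lower. Over all 27841 names, groups that lay apart made up 2.54% with B9_B12 higher and 3.22% with B9_B12 lower. Both apart and 2-fold different were 2 higher and 8 lower symbols.

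**Figure D1:**
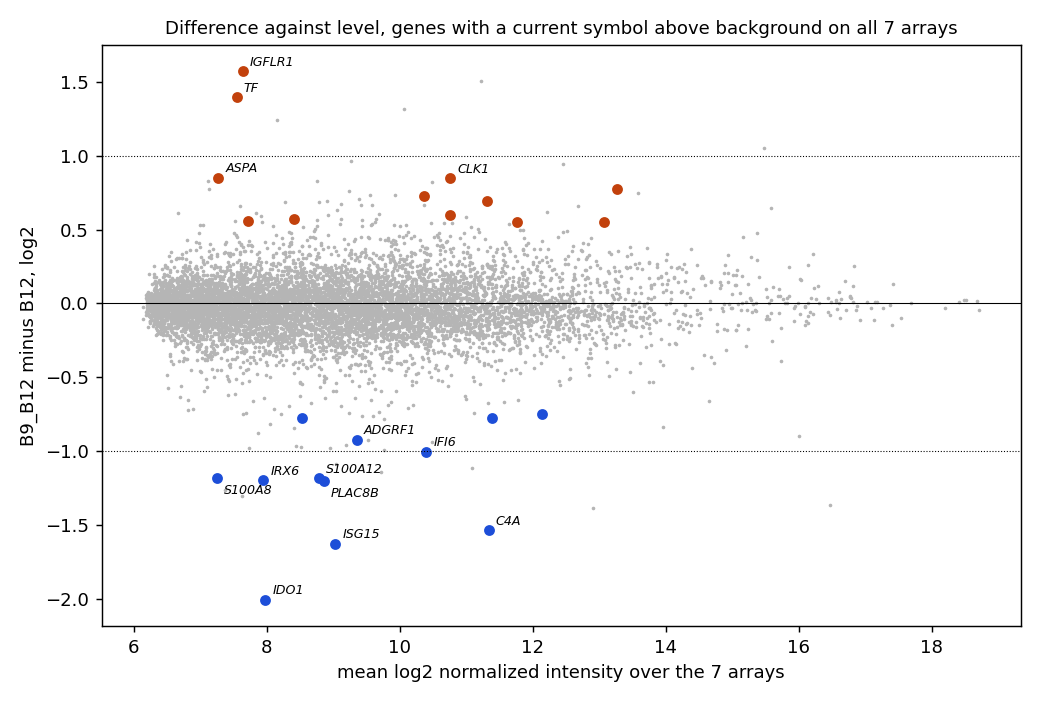
Each grey point is 1 of 8534 gene symbols above background on all 7 arrays, with its mean log2 normalized intensity on the x axis and its log2 difference (B9_B12 minus B12) on the y axis. Orange and blue points are the 12 higher and the 12 lower genes with the largest differences among those whose groups did not overlap, and dotted lines mark a 2-fold difference. Most points lie within 0.5 of 0, and the lower genes reach farther (*IDO1*, −2.01) than the higher ones (*IGFLR1*, 1.57).

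Among the largest differences were those of *IDO1* and *ISG15*, genes of the interferon response, which were lower with B9_B12. Interferons are cytokines of antiviral defence, and the genes they induce encode proteins that tag, sequester or degrade viral products. *ISG15*, a ubiquitin-like protein that is conjugated to other proteins after interferon, measured 9.97, 10.49, 8.65 and 9.81 in cows 36, 37, 40 and 52 of the B12 group. In cows 31, 32 and 38 of the B9_B12 group it measured 8.29, 8.01 and 8.02. Every B9_B12 array was below every B12 array, and cow 40 was the lowest of its group. *ISG15* was 3.08-fold lower with B9_B12, with a 95% interval of 1.59-fold to 5.97-fold lower before any adjustment (log2 difference −1.63, SE 0.40, adjusted p = 0.988 by limma, adjusted p = 0.0089 by Cyber-T). The exact permutation p was 0.0571, where the smallest that 35 assignments allow is 0.0286. For this and the other genes of the plot of single arrays, which were chosen because their groups did not overlap, this p is a description and no further test. A second *ISG15* probe gave a difference of −1.45. On the slides that held both groups, cow 32 minus cow 52 was −1.81 and cow 38 minus cow 40 was −0.63.

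The study also designed quantitative PCR primers for *ISG15* and *IFI27*, which it assayed in the liver, and for *ADGRF1* (listed there as *GPR110*), an adhesion G protein-coupled receptor that was among the 12 lowest genes of the comparison. The PCR values were not analysed here. The study reports that its liver PCR did not bear out the effect of vitamin B12 against control on *ISG15* and *IFI27*. In the mammary gland it names *RAB15* and *POSTN* as borne out by PCR, and not *ADGRF1*. The primers show which parts of the transcripts that assay reads. The sequences are from the study's supplementary material, written 5′ to 3′, with no part set in capitals.
ISG15 forward primer: gaccagttctggctgtcttttga
ISG15 reverse primer: caccccgaagacgtagattcat
IFI27 forward primer: gcggccaagatgatgtcaata
IFI27 reverse primer: aagagtttggatgacaggcagagt
ADGRF1 forward primer: tacgggtgccctctcattatatc
ADGRF1 reverse primer: atcggaccagttaagccaacat

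*IFI27*, a small interferon-induced membrane protein, measured 11.88, 12.05, 11.43 and 11.54 in cows 36, 37, 40 and 52, and 11.14, 10.87 and 10.83 in cows 31, 32 and 38. The groups lay apart with little spread within them, and *IFI27* was 1.71-fold lower with B9_B12 (log2 difference −0.78, SE 0.17). Its 2 other probes gave −1.09 and −0.42, and the values within the 2 slides were −0.67 and −0.60. *IFI6*, which is related to *IFI27* in sequence, measured 10.49, 11.43, 10.30 and 11.11 against 10.06, 9.34 and 10.08 in the same order of cows, and was 2.01-fold lower (exact permutation p = 0.0571). *OAS1Y*, a synthetase that activates the antiviral ribonuclease RNase L, differed by −1.14, and its groups overlapped because cow 40 (9.28) was below cow 31 (9.73).

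*IDO1*, an enzyme that opens the ring of tryptophan and is induced by interferon gamma, had the largest difference of all. It measured 9.26, 7.78, 7.80 and 10.52 in cows 36, 37, 40 and 52, and 6.74, 6.76 and 7.0 in cows 31, 32 and 38. The B9_B12 arrays were close together and below all B12 arrays, whereas the B12 arrays differed from each other by more than the distance between the groups. *IDO1* was 4.02-fold lower with B9_B12, and the 95% interval ran from 1.33-fold to 12.1-fold lower. The values within the 2 slides were −3.76 and −0.80, and leaving out 1 array at a time gave −2.36 to −1.45.

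Of 30 interferon genes listed, 21 were measured and 17 of these were lower with B9_B12, with a median difference of −0.29 beside −0.0031 over all names. At an unadjusted p below 0.05, 5 of 21 were lower (*IDO1*, *ISG15*, *OAS1Y*, *IFI6* and *IFI27*) and 0 higher, beside 2.63% lower and 2.05% higher over all names. Over the 11068 current symbols, from which all lists were drawn, 4.07% were lower and 2.09% higher, the median difference was −0.015, and 55.7% of the symbols were below 0. The groups lay apart in 5 of 21 (the same genes with *OAS1Z* in place of *OAS1Y*), all with B9_B12 lower, beside 3.78% of all current symbols apart with B9_B12 lower and 2.14% with B9_B12 higher. The remaining members were closer to 0. *MX1*, a GTPase that traps viral particles, differed by −0.75 with cow 37 (9.74) above the other arrays (7.33 to 8.45). *HERC6*, a ligase that belongs to the family which attaches ISG15, had the largest difference in the other direction at 0.43 (SE 0.36). The 5 genes at an unadjusted p below 0.05 became 2 without cow 32, 3 without cow 36 and 8 without cow 40, and the median then lay between −0.41 and −0.23 over all arrays left out one at a time. Within slides the median of the list was −0.42 (cow 32 minus cow 52) and −0.033 (cow 38 minus cow 40).

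**Figure D2:**
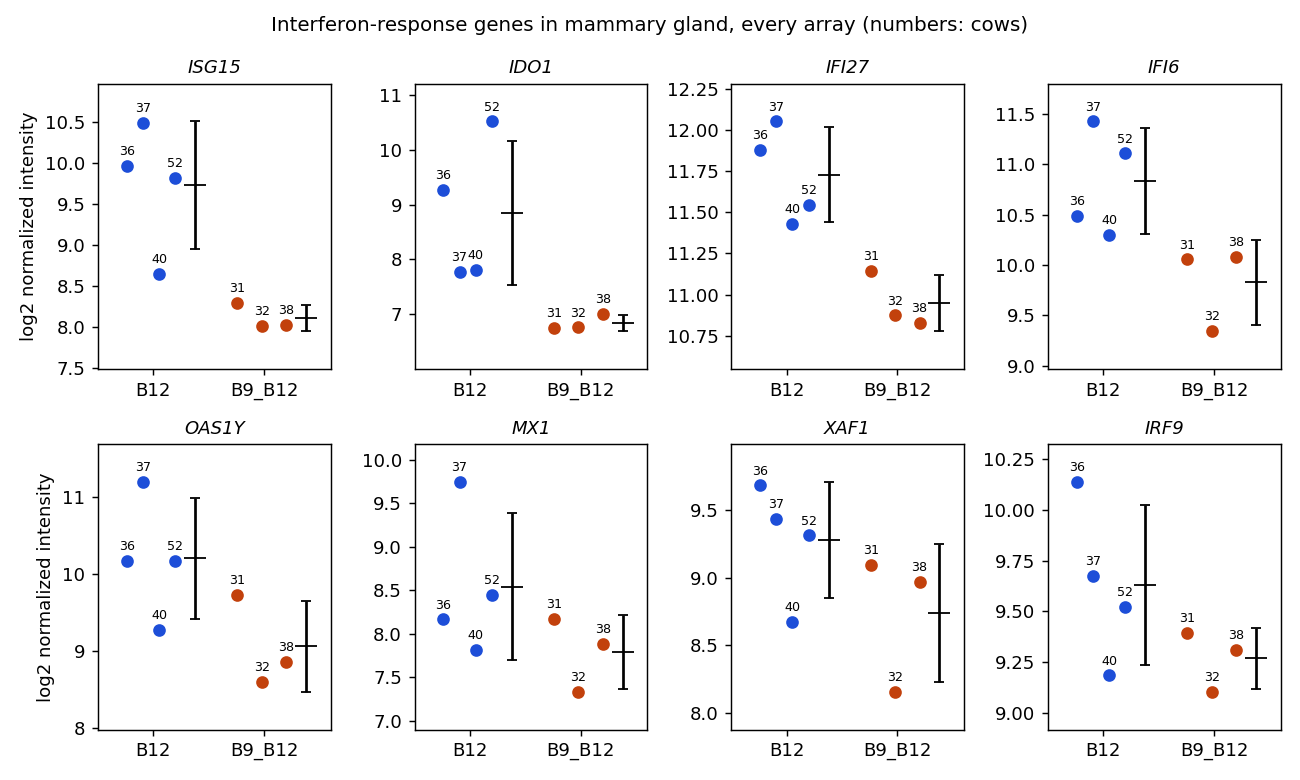
Log2 normalized intensity of 8 interferon-response genes on each of the 7 mammary arrays, labelled by cow, with the B12 group in blue and the B9_B12 group in orange. Bars are the mean ± SD of the group. The groups do not overlap for *ISG15*, *IDO1*, *IFI27* and *IFI6*, and overlap for *OAS1Y*, *MX1*, *XAF1* and *IRF9*, where cow 40 lies among the B9_B12 arrays.

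The same genes were set beside the mammary arrays of the cows that received saline (Ctl, 3 cows) or vitamin B9 alone (B9, 3 cows). The B12 mean was the highest of the 4 group means for 17 of 21 interferon genes, against 27.9% of all names. These shares are not on an equal footing, because 17 of the 21 were already lower with B9_B12 than with B12. The share among only those names that were lower with B9_B12 was not computed. *ISG15* ranged from 8.21 to 8.83 in Ctl and from 7.99 to 8.73 in B9, so that the B9_B12 arrays (8.01 to 8.29) lay among them and 3 of the 4 B12 arrays above them. *IFI27* ranged from 10.82 to 11.34 in Ctl and from 10.58 to 11.20 in B9, and again only the B12 arrays were above this range. *IDO1* ranged from 7.75 to 7.84 in Ctl, higher than in all B9_B12 arrays, and from 6.53 to 7.76 in B9. In the liver of the same cows (B12, 4 arrays; B9_B12, cows 32 and 38), *IFI27* ranged from 16.55 to 17.47 in B12 and was 14.43 and 13.61 in B9_B12. *IFI6* ranged from 16.25 to 17.50 in B12 and was 13.69 and 12.83 in B9_B12, and *ISG15* ranged from 12.92 to 15.92 and was 12.27 and 11.26. *IDO1* was alike in the liver, at 8.49 to 9.01 in B12 and 8.71 and 8.81 in B9_B12. The liver values come from the same animals, were not tested and are no further replicates.

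The calgranulins *S100A8* and *S100A12* and the complement gene *C4A* also had groups apart with B9_B12 lower. *S100A8* and *S100A12* encode calcium-binding proteins of neutrophils and inflamed epithelium. *S100A12* measured 9.84, 8.84, 8.67 and 9.82 in cows 36, 37, 40 and 52, and 8.10, 7.94 and 8.30 in cows 31, 32 and 38, a 2.27-fold lower level (log2 difference −1.18, SE 0.33). *S100A8* measured 8.84, 7.53, 6.96 and 7.71 against 6.49, 6.55 and 6.70, also 2.27-fold lower, and cow 36 was the highest. *S100A9*, the partner of S100A8, was apart as well (log2 difference −0.57), with most of the distance due to cow 36 (7.72). The summed intensity of 8 neutrophil markers, *S100A8*, *S100A9* and *S100A12* among them, ranged from 1833 to 3252 in B12 and from 1440 to 1794 in B9_B12. *S100A8* and *S100A12* were chosen for their lower values on these same arrays, so the gap between the sums is no separate evidence. A sum without them was not taken. Of these 8 markers 6 were below 0, and the median difference was −0.21. The other 2 were *MMP9*, which was higher with B9_B12 with the groups apart and an unadjusted p below 0.05 (log2 difference 0.19), and *CXCR2*, at 0.045. The part of neutrophil number in the calgranulin values was not tested.

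*C4A*, a component of the complement cascade, measured 11.63, 11.96, 11.70 and 12.70 in cows 36, 37, 40 and 52, and 10.16, 9.73 and 11.49 in cows 31, 32 and 38. It was 2.90-fold lower with B9_B12, and the values within the 2 slides were −2.97 and −0.21, since cow 38 lay close to the B12 arrays. Its 4 other probes gave −1.23 to −0.32. *PLAC8B* measured 9.95, 9.34, 8.82 and 9.40 against 8.54, 7.82 and 8.16 in the same order, 2.30-fold lower, and a second probe gave −0.87. Of 25 listed acute-phase and inflammatory genes 22 were measured, and 3 were lower at an unadjusted p below 0.05 (*S100A8*, *S100A12* and the chemokine *CXCL8*, the last by −0.13). Over all current symbols 4.07% were lower at that p. The median of the list was −0.14, and ran from −0.23 (without cow 40) to −0.11 when arrays were left out one at a time. With Agilent's processed signal the median was −0.59, and with a normexp offset of 0 it was −0.33. Within slides the median was −0.41 with 21 of 22 genes below 0 (cow 32 minus cow 52) and 0.0074 with 11 of 22 below 0 (cow 38 minus cow 40). *SAA3*, the mammary serum amyloid A, differed by 0.18 (SE 0.67) and was highest in cow 52 of B12 (12.60) and in cow 31 of B9_B12 (12.27), so that cows differed within each group.

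The other genes of the 12 lowest whose groups did not overlap had varied functions. *ADGRF1* measured 9.86, 9.85, 9.45 and 9.85 in cows 36, 37, 40 and 52, and 9.08, 8.33 and 9.09 in cows 31, 32 and 38. It was 1.90-fold lower, and a second probe gave −0.25. *IRX6*, a homeobox transcription factor, differed by −1.20, with cow 36 (7.69) just above cow 32 (7.68), and a second probe gave −0.29. *PLK3*, a kinase of the stress response, differed by −0.78 and its second probe by −0.10. *AQP1*, the water channel of capillary endothelium, ranged from 12.07 to 12.88 in B12 and from 11.31 to 12.01 in B9_B12 (log2 difference −0.75). For *PLK3*, *IRX6* and *ADGRF1* the second probe of the gene thus gave a much smaller difference than the first.

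Of the 24 genes in the plot of single arrays, the 12 higher ones differed by 0.55 or more. *IGFLR1*, a receptor of the tumour necrosis factor receptor family, measured 6.60, 6.76, 6.58 and 7.92 in cows 36, 37, 40 and 52, and 8.49, 8.52 and 8.61 in cows 31, 32 and 38. The B9_B12 arrays were alike and above all B12 arrays, of which cow 52 stood apart from the others. *IGFLR1* was 2.98-fold higher (log2 difference 1.57, SE 0.33, adjusted p = 0.988 by limma), and without cow 52 the difference was 1.89 with an adjusted p of 0.0111 by limma. It was the only gene that passed both thresholds in limma when an array was left out. In the Ctl and B9 groups *IGFLR1* ranged from 6.52 to 8.91 and from 6.41 to 6.68, so that both levels also occurred among cows that received saline.

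*TF* (transferrin, the iron carrier of plasma and milk) was 2.63-fold higher with B9_B12. It measured 6.35, 7.02, 7.27 and 7.17 in cows 36, 37, 40 and 52, and 9.29, 8.41 and 7.35 in cows 31, 32 and 38, so that cow 38 was only 0.08 above cow 40 on their shared slide. The 5 other *TF* probes gave 0.02 to 1.03. *ALB* (albumin) was higher as well (log2 difference 0.82), at 6.35 to 7.92 against 6.11 to 6.33. Both genes are listed as hepatocyte markers, and 8 of the 9 measured markers of that list were highest in cow 31. The median difference of the list was 0.40 and lay between 0.11 and 0.64 when arrays were left out one at a time, and a part of liver RNA or plasma protein genes in the value of *TF* was not tested.

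*ASPA*, which deacetylates N-acetylaspartate to give acetate, had B12 arrays that lay close together. It measured 6.94, 6.99, 6.85 and 6.86 in cows 36, 37, 40 and 52, and 7.84, 8.0 and 7.44 in cows 31, 32 and 38. The difference of 0.85 (SE 0.13) was 1.80-fold, with a 95% interval of 1.46-fold to 2.23-fold and an adjusted p of 0.988 by limma. *ERBB3*, a receptor for neuregulin that signals with ERBB2, ranged from 9.88 to 10.35 in B12 and from 10.63 to 10.86 in B9_B12 (log2 difference 0.73), and the values within the 2 slides were 0.87 and 0.96. The 2 other probes of *ERBB3* gave 0.22 and 0.25.

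*CLK1*, a kinase of splicing factors, measured 9.81, 10.97, 9.80 and 11.01 in cows 36, 37, 40 and 52, and 11.06, 11.28 and 11.40 in cows 31, 32 and 38. *LUC7L*, a protein of the spliceosome, measured 11.01, 11.94, 11.22 and 11.93 against 11.95, 12.08 and 12.19. For both genes cows 36 and 40 were low and cows 37 and 52 were at the edge of the B9_B12 arrays, and the exact permutation p was 0.114 for *CLK1* and 0.143 for *LUC7L*. *CWC25*, another splicing factor, differed by 0.55 (SE 0.12), and 7 other probes gave 0.07 to 0.50. *TSPYL4*, *NXPE4*, *COQ8A* (a kinase-like protein of coenzyme Q synthesis), *ATF7IP* (a partner of a histone methyltransferase) and *TCF19* differed by 0.56 to 0.77. *TSPYL4* had 3 other probes at −0.06 to 0.18.

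**Figure D3:**
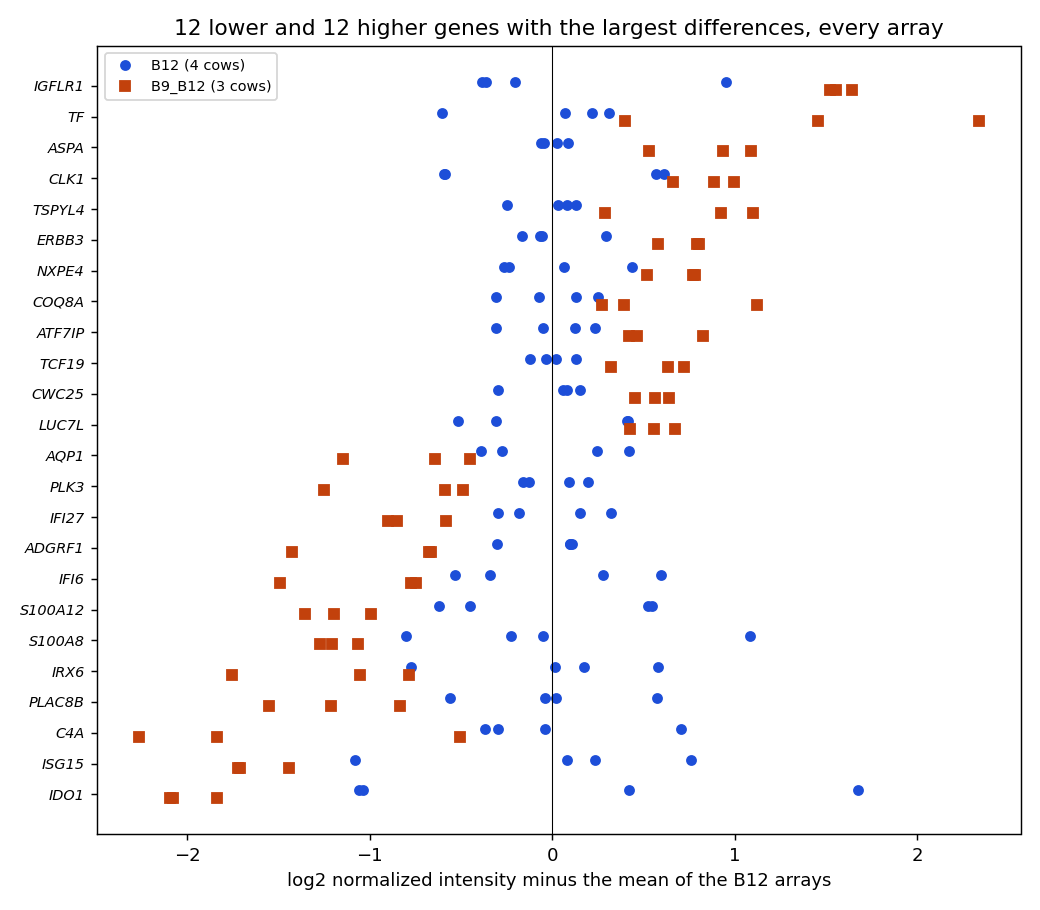
Log2 normalized intensity of each array relative to the mean of the B12 arrays, for the 12 higher and the 12 lower genes with the largest differences among genes above background on all 7 arrays whose groups did not overlap. Blue circles are the 4 B12 cows and orange squares the 3 B9_B12 cows. For *IDO1*, *ISG15* and *S100A8* the B12 cows spread more widely than the B9_B12 cows, and for *TF* the B9_B12 cows spread more widely.

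Genes of the folate cycle differed little, although vitamin B9 was the agent that set the groups apart. Of 16 measured of 19 listed, 9 were higher and 7 lower with B9_B12, with a median difference of 0.0098, and 1 (6.25%) had an unadjusted p below 0.05, near the 6.16% of all current symbols. This was *GART*, which catalyses steps of purine synthesis that use a folate cofactor. It measured 9.10, 9.07, 9.03 and 9.10 in cows 36, 37, 40 and 52, and 8.80, 8.73 and 8.95 in cows 31, 32 and 38, a 1.19-fold lower level (adjusted p = 0.988 by limma). A second *GART* probe gave −0.13. *TYMS* (thymidylate synthase) had the largest positive difference at 0.19, and *MTHFD2*, a mitochondrial dehydrogenase of the cycle, the largest negative at −0.37. Its arrays overlapped, at 6.69 to 7.62 in B9_B12 and 7.07 to 8.09 in B12.

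None of the 7 measured folate transporters and storage enzymes of 9 listed had an unadjusted p below 0.05. *SLC19A1*, the reduced folate carrier, differed by −0.091 with a 95% interval of −0.28 to 0.10. *FOLR2*, a folate receptor, differed by 0.067 (−0.32 to 0.46), and *FPGS*, which retains folate in cells by adding glutamates, by 0.087 (−0.29 to 0.46). The interval reached farthest from 0 for the transporter *ABCG2* (0.033, −0.58 to 0.64), which left room for a difference of up to 1.56-fold.

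In the methionine cycle, 15 of 20 listed genes were measured, with a median difference of 0.00079, and 1 (6.67%) had an unadjusted p below 0.05, again near the 6.16% of all current symbols. *BHMT*, which remethylates homocysteine with betaine in place of folate, was higher by 0.15, but it was above background on 1 of 3 B9_B12 arrays and on 0 of 4 B12 arrays, and its levels of 5.85 to 6.16 lay at the floor of the array. *MTR* differed by −0.11 with a 95% interval of −0.27 to 0.054. *MAT2B*, the regulatory subunit of the S-adenosylmethionine synthetase of this tissue, had the largest difference of the measured members at 0.30 (SE 0.16), and its groups overlapped because cow 36 (10.25) was high. *AHCY*, which clears S-adenosylhomocysteine, differed by −0.19.

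Among genes that carry and use vitamin B12, which both groups received, 14 of 16 listed were measured and 2 (14.3%) were lower at an unadjusted p below 0.05, beside 4.07% of all current symbols. *MMACHC*, which strips the upper ligand such as the cyano group from cobalamin, measured 8.55, 8.63, 8.85 and 8.80 in cows 36, 37, 40 and 52, and 8.50, 8.35 and 8.46 in cows 31, 32 and 38. *MCEE*, the epimerase one step before methylmalonyl-CoA mutase, measured 10.06, 10.03, 10.01 and 10.14 against 9.90, 9.91 and 9.72. The groups lay apart in both, with differences of −0.27 (SE 0.09) and −0.21 (SE 0.06). *MMUT* itself differed by 0.012 with a 95% interval of −0.15 to 0.17. *TCN2*, the plasma carrier that delivers cobalamin, and its receptor *CD320* differed by −0.32 and −0.24, each with overlapping groups.

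**Figure D4:**
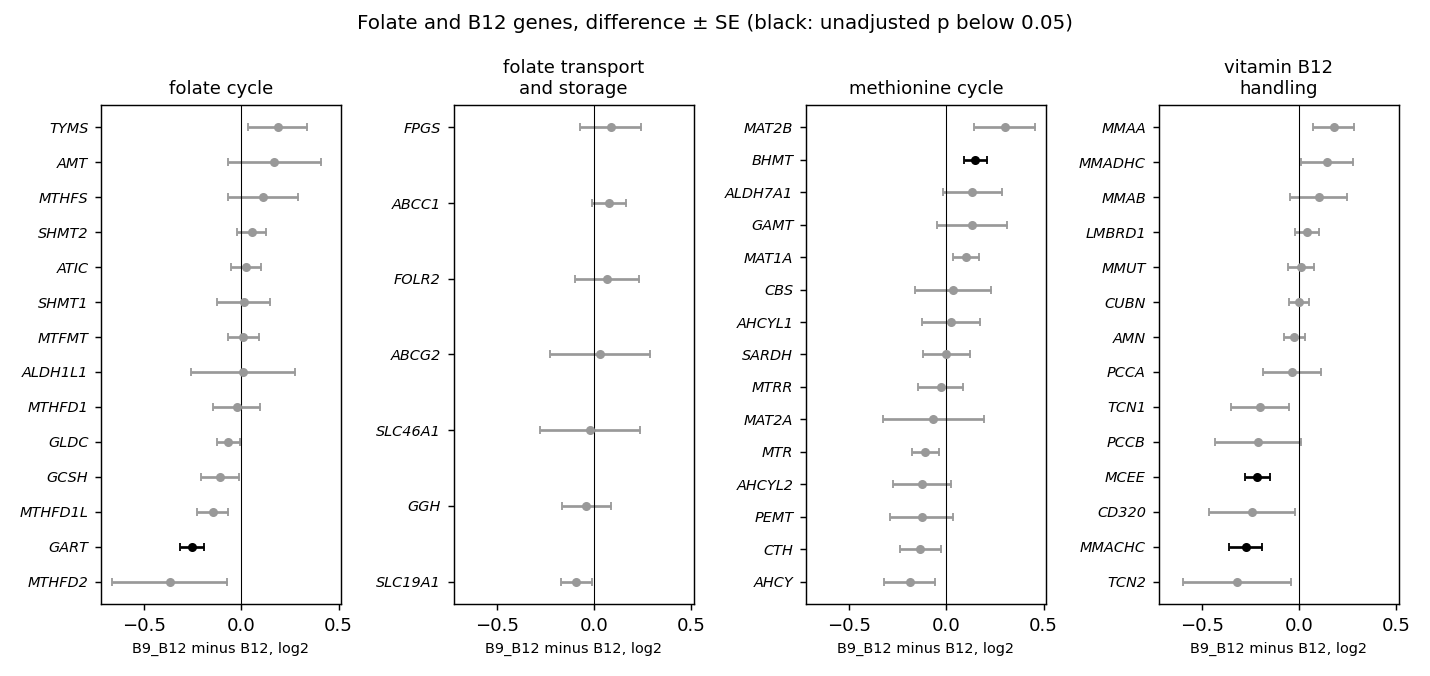
Log2 difference (B9_B12 minus B12) with its SE from limma for measured genes of the folate cycle, folate transport and storage, the methionine cycle and vitamin B12 handling. Black points have an unadjusted p below 0.05 (*GART*, *BHMT*, *MMACHC* and *MCEE*), and all points lie between −0.37 and 0.30.

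Nucleotide synthesis and cell division, which draw on one-carbon units, were described next. Of 16 measured nucleotide genes of 22 listed, 13 were below 0 (81.2%, beside 55.7% of all current symbols), with a median of −0.11 that became −0.067 without cow 52. At an unadjusted p below 0.05 there was 1 (6.25%), near the 6.16% of all current symbols. Cow 52 of B12 was highest for 9 of the 16. *UMPS*, the last enzyme of uridine monophosphate synthesis, measured 9.46, 9.46, 9.62 and 9.70 in B12 and 9.44, 9.31 and 9.23 in B9_B12, so that the groups lay 0.02 apart on the log2 scale. Of 19 measured genes of cell division, 12 were higher and 7 lower, with none at an unadjusted p below 0.05 and a median of 0.028. Cow 31 of B9_B12 was highest for 14 of the 19, and the median became −0.061 without it and −0.0080 without cow 40. Without cow 38 it was 0.091, without cow 52 0.078 and without cow 32 0.075. Within the slide of cows 32 and 52 it was −0.21, with 16 of 19 genes below 0.

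The casein and whey protein genes differed little between the groups. *CSN1S1* (αs1-casein) ranged from 18.65 to 18.72 with B9_B12 and from 18.69 to 18.74 with B12, a difference of −0.043 with a 95% interval of −0.14 to 0.054. *CSN3* (κ-casein), *PAEP* (β-lactoglobulin) and *LALBA* differed by 0.026, 0.018 and 0.025. These probes are among the brightest of the array, where quantile normalization draws the arrays together. *LTF* (lactoferrin, an iron-binding protein of innate defence in milk) was the exception in spread. It measured 17.08, 16.97, 16.66 and 17.54 in cows 36, 37, 40 and 52, and 17.43, 13.87 and 15.80 in cows 31, 32 and 38. Cow 32 was far below all others and cow 31 within the B12 arrays, so the difference of −1.36 (SE 0.76) was not larger than the spread between cows (exact permutation p = 0.171).

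None of the 9 measured genes of lactose synthesis had an unadjusted p below 0.05. *B4GALT1*, the galactosyltransferase of lactose synthase, differed by 0.23 with a 95% interval of −0.72 to 1.18, since cows of both groups ranged from 14.56 to 16.05. Of 29 measured genes of milk fat synthesis, 1 was higher and 2 were lower at an unadjusted p below 0.05 (10.3%, beside 6.16% of all current symbols in either direction). *FABP4*, a fatty acid-binding protein, measured 15.09, 15.22, 15.23 and 15.47 in B12 and 15.55, 15.50 and 15.60 in B9_B12 (difference 0.29). *SCAP*, the escort of the lipogenic transcription factors SREBP, measured 10.45, 10.54, 10.36 and 10.38 against 10.07, 10.28 and 10.17 (difference −0.26). *ACSL1*, which activates long-chain fatty acids, differed by −0.29 with overlapping groups. The desaturase *SCD* differed by −0.10, and *FABP3* by −0.11.

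Of 16 measured genes of cholesterol synthesis and uptake, 4 (25.0%) were lower at an unadjusted p below 0.05 and 0 higher, and 12 of 16 were below 0. The median was −0.10, and became −0.20 without cow 36, −0.17 without cow 32 and −0.079 without cow 52. Over all current symbols 4.07% were lower at that p and 55.7% below 0. *SQLE*, which epoxidizes squalene, ranged from 12.89 to 13.05 on the B12 arrays, and measured 12.76, 12.66 and 12.62 in cows 31, 32 and 38. Its groups lay apart, and it was lower by 1.24-fold (log2 difference −0.31, SE 0.06). The other members at that p were *FDPS* (−0.28), *NSDHL* (−0.36) and *CYP51A1* (−0.26), all enzymes of the pathway, and *CYP51A1* had overlapping groups. The median of the list was −0.20 within the slide of cows 32 and 52 and −0.11 within the slide of cows 38 and 40. Each cow's median deviation of these genes from the mean of the 7 arrays ran from −0.021 to 0.11 in B12. It ran from −0.092 to −0.046 in B9_B12, from −0.21 to 0.065 in Ctl and from −0.47 to 0.25 in B9.

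The 29 ribosomal protein genes had a median difference of 0.0023 and none had an unadjusted p below 0.05. Of 26 measured genes of the respiratory chain, 20 were below 0 with a median of −0.054, and 2 subunits of cytochrome c oxidase were lower at an unadjusted p below 0.05, *COX7A2* by a difference of −0.16 and *COX4I1* by −0.15. These 2 of 26 (7.69%) stood beside 6.16% of all current symbols at that p in either direction, and the median ran from −0.096 without cow 36 to −0.030 without cow 52. None of 17 measured genes of amino acid deprivation and endoplasmic reticulum stress, 13 measured genes of lactation signalling, 11 amino acid transporters or 7 genes of metal response had an unadjusted p below 0.05. Of the 17 stress genes 13 were below 0 with a median of −0.17, which became 0.035 without cow 32 and −0.39 without cow 38. Within slides 15 of 17 (cow 32 minus cow 52) and 5 of 17 (cow 38 minus cow 40) were below 0. *ELF5*, the transcription factor of milk-secreting cells, differed by 0.03, and *TRIB3*, a pseudokinase induced by amino acid shortage, by −0.66 with cow 38 (10.76) above all B12 arrays.

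Markers of the cell types in the biopsy were read the same way. Of 8 luminal epithelial markers, the adhesion molecule *EPCAM* was higher with the groups apart (difference 0.36) and *KRT8* and *KRT18* differed by −0.39 and −0.35 with overlapping groups, with a list median of −0.0011. Matrix genes of fibroblasts were below 0 in 13 of 15 (86.7%, beside 55.7% of all current symbols), with a median of −0.22 that became −0.080 without cow 52 and −0.14 without cow 32. The collagen *COL6A1* was the only one at an unadjusted p below 0.05 (−0.49), and 13 of 15 were highest in cow 52 of B12 and 11 of 15 lowest in cow 32 of B9_B12. Of 9 endothelial markers 6 were below 0, with a median of −0.046, and 1 was lower at that p (*CLDN5*, −0.74, groups overlapping). The 8 markers of B and plasma cells gave none at that p. Of 14 T cell markers 1 was higher at an unadjusted p below 0.05 (*CD3D*, 0.46, groups overlapping), beside a list median of 0.048. Over all current symbols 4.07% were lower and 2.09% higher at that p, and single markers in such short lists are no more than a description. The summed intensity of 13 macrophage markers overlapped, at 34384 to 43593 in B12 and 28154 to 43655 in B9_B12. The 9 myoepithelial markers had a median of −0.0053. Of 10 muscle markers 1 was lower at an unadjusted p below 0.05 (*DES*, −0.76), while 6 were above 0 and the median was 0.0062. Of 6 adipocyte markers 1 was higher at that p (*CFD*, 0.25), with a median of 0.043, and another lay apart with B9_B12 lower. The groups overlapped for *DES* and *CFD*. Haemoglobin *HBB* was at 12.24 in cow 36 and between 6.28 and 7.15 in the other cows. Cow 36 was also highest in 6 of 8 neutrophil markers. Without cow 36, *S100A8* and *S100A12* differed by −0.82 and −1.0, and the part of blood or neutrophils in these values was not tested.

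**Figure D5:**
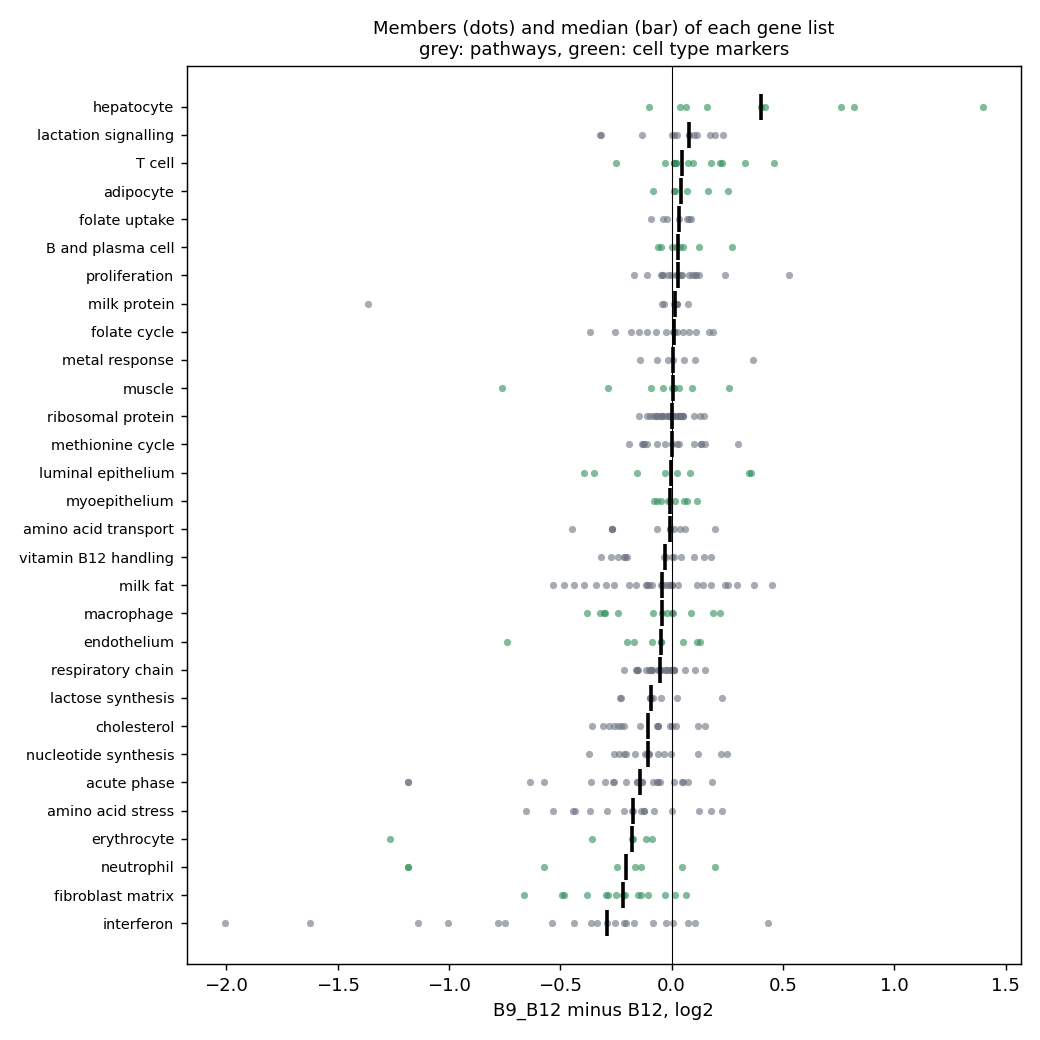
Log2 difference (B9_B12 minus B12) of every measured member of 18 pathway lists (grey) and 12 cell type marker lists (green), with the median of each list as a black bar, ordered by the median. Interferon genes have the lowest median (−0.29) and hepatocyte markers the highest (0.40), and most other medians lie within 0.1 of 0.

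The effect of vitamin B9 in cows without vitamin B12 (B9 minus Ctl) used none of these 7 arrays and was set beside the effect with vitamin B12. Across 17208 names above background on all 7 arrays, both differences had a Pearson correlation of −0.047 and a Spearman correlation of −0.057, given as a description across genes of 2 sets of arrays, and 47.9% of names had the same sign. The limma interaction of vitamin B9 and vitamin B12 counted 0 genes past the same thresholds, with a smallest adjusted p of 1.00 that fell to 0.0399 without cow 57 of B9 and 0.0708 without cow 43 of Ctl, and 3.17% of names had an unadjusted p below 0.05. Of the 12 lowest genes with B9_B12 whose groups did not overlap, 10 were also below 0 in B9 minus Ctl, and of the 12 highest such genes 4 were above 0. *PLAC8B* lay apart in both comparisons, with −1.20 and −0.57. *IGFLR1* differed by 1.57 with vitamin B12 and by −1.39 without it, *ASPA* by 0.85 and −0.06, and *ISG15* by −1.63 and −0.23. Groups that lay apart in both comparisons were found for 72 names in the same direction (0.259% of all names) and 68 in opposite directions (0.244%), where 5.76% of names lay apart in the first comparison and 6.68% in the second.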

How the data were processed

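For 1-colour Agilent bovine arrays, the authors deposited scanner files (Feature Extraction 10.7.3.1 per the file headers, 9.1 per the submitters' processing notes) that hold unnormalized spot and background intensities, and a table of log2 values they had corrected and normalized. Median spot intensities were corrected by normexp (offset 50), normalized by quantiles over the 13 mammary arrays and put on the log2 scale. Outlier spots were left out and spots of a probe averaged. Names are accessions, 11113 of which matched current symbols, and no coordinates were used because genome builds differ. B9_B12 and B12 arrays were compared by limma 3.58.1 in R 4.3.3 (5 residual degrees of freedom, Benjamini-Hochberg adjustment over all probes) and by Cyber-T (window 101, confidence 10), single genes by exact two-sided permutation tests. A gene is read from its brightest probe. Genes named are the 12 largest differences each way among non-overlapping symbols above background on all 7 arrays, a gene above background in only 1 group, genes of the study's mammary comparison, the extremes of each pathway list, and folate, methionine and B12 genes at an unadjusted p below 0.05. Other list members were named after their values were seen. The members and lists were chosen with earlier results of these data known. The tests were checked on simulated data, and the number of arrays limits the precision. Some list members enter the counts and medians and are not reported here by name.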

Additional observations from a re-analysis of the deposited data

Results flagged for a closer look

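In the B12 group, the highest or lowest of the 4 cows stood far from the nearest other cow for 7 of the 71 genes named by rule, and chance alone does this in about 1 of 20 groups. Groups of 3, and so the B9_B12 arrays, were not examined in this way. *PLIN2*, which coats lipid droplets and milk fat globules, was at 16.04 in cow 52 and between 13.22 and 13.40 in the other B12 cows, and the B9_B12 arrays ranged from 13.27 to 13.64. Its difference of −0.53 became 0.16 when cow 52 was left out. *IGFLR1* was at 7.92 in cow 52, against 6.58 to 6.76 in the other B12 cows. *ADGRF1* was at 9.45 in cow 40, below 9.85 to 9.86 in the others, and *SLC19A1* at 6.68 in cow 40, below 6.89 to 6.93. *CISH*, a suppressor of cytokine signalling, was at 9.38 in cow 40, above 8.52 to 8.61. *MAT2B* was at 10.25 in cow 36, above 9.72 to 9.77, and *RAB15*, a small GTPase of endosomes, at 11.19 in cow 36, below 11.50 to 11.55. No cow accounted for all of these genes. The interaction of vitamin B9 with vitamin B12 gave no gene past the thresholds and none is listed here.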

How the results depend on the processing

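No paired analysis was possible because the groups compared hold different cows and share no cow number, and the labels do not give the milk-yield block in which a cow was randomised. The alternatives were run on the 71 genes named by rule. For 29 of these (the 24 genes with the largest differences among those with groups apart, the gene above background in 1 group and the folate, methionine and B12 genes at an unadjusted p below 0.05), direction was followed, and it was kept in every alternative run. For the 28 of these whose groups did not overlap, no array left out and no difference within a slide could have turned it, so that only the other alternatives bear on it. Other list members named in the text were not followed one by one. Of 1703 gene values of all 71 genes under the alternatives, 51 values of 26 genes outside these 29 had the other sign (*PLIN2* without cow 52 among them), 37 values moved by more than the spread between cows and 6 passed an adjusted p of 0.05. These 6 were *IGFLR1*, *ASPA*, *IDO1*, *ISG15* and *PLAC8B* by Cyber-T and *IGFLR1* in limma without cow 52. The count of genes was 0 under all alternatives but Cyber-T (8) and ranged from 0 to 1 when arrays were left out one at a time. The count for the interaction was 0 throughout, while its smallest adjusted p of 1.00 ranged from 0.0399 (without cow 57 of B9) to 1.00 when arrays were left out. No scaling moved the median of all probes by more than 0.049 on the log2 scale.

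The names at an unadjusted p below 0.05 were 572 higher and 733 lower. The higher names became 338 with Agilent's processed signal under 75th-percentile scaling and 380 with that scaling of the median signal, and with the slide as a fixed block they became 1335 higher and 1107 lower. Leaving out arrays gave 468 to 867 higher names, the highest without cow 37, where 759 were lower, and cyclic loess gave 657 higher and 668 lower, so that the excess of lower names turned round with the fixed block and without cow 37. Cyber-T gave 8 interferon genes, and leaving out arrays gave 2 to 8. The cause was not tested.

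List medians moved by more than the spread between cows under few settings, and the cause was not tested. With a normexp offset of 0, acute-phase genes were at −0.33 and hepatocyte markers at 0.81, and without background correction acute-phase genes were at −0.26. With Agilent's processed signal the medians were −0.55 for interferon genes, −0.59 for acute-phase genes, −0.067 for folate transport, −0.059 for the methionine cycle, −0.043 for milk protein, −0.14 for the respiratory chain, −0.063 for ribosomal proteins, 0.15 for T cells, 0.046 for muscle and 0.90 for hepatocytes. With the 75th percentile in place of quantiles the methionine cycle was at −0.038, ribosomal proteins at −0.060 and muscle at −0.056. With the slide as a fixed block (13 arrays) the methionine cycle was at 0.084, B12 handling at −0.080, the respiratory chain at −0.13, macrophages at −0.24 and muscle at −0.034. Leaving out arrays gave −0.049 to 0.087 for the methionine cycle, −0.0092 to 0.026 for milk protein, −0.20 to −0.079 for cholesterol, −0.014 to 0.034 for ribosomal proteins, 0.013 to 0.10 for adipocytes, −0.21 to −0.0075 for endothelium, 0.0038 to 0.18 for T cells and −0.041 to 0.026 for muscle. Within slides, which was added after the data were seen together with cyclic loess and the counts of names, the median had the other sign for 7 of 18 pathway lists (cow 32 minus cow 52) and for 4 of 18 (cow 38 minus cow 40), and was 0 for milk protein in both. For the 12 cell type marker lists it had the other sign in 5 and in 3. With 3 and 4 cows, the precision is limited, and *BHMT* and *OAS1Z* were not well above background on every array.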

Other observations

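Genes that the study named for the mammary gland and that are not described above mostly had groups that overlapped. *CIDEA*, a lipid droplet protein tied to milk fat secretion, ranged from 13.92 to 15.69 in B12 and from 15.00 to 16.20 in B9_B12. *POSTN*, a matrix protein, ranged from 7.45 to 8.67 and from 7.29 to 7.96. *FUT6*, a fucosyltransferase (*FUT5* in the study, which RefSeq lists as a synonym), ranged from 8.83 to 9.85 in B12 and from 6.63 to 10.60 in B9_B12. *RAB15* was 1.46-fold lower with B9_B12, where cow 31 (10.21) was the lowest. *SLC9B1*, a sodium/hydrogen exchanger, was not among the study's mammary genes. It was well above background on all 4 B12 arrays and on none of the 3 B9_B12 arrays, which makes it at least 1.11-fold higher in B12.

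Some genes chosen here after their values were seen lay apart both with B9_B12 against B12 and with B9 against Ctl, comparisons that share no array. *SLC5A6*, the transporter of biotin and pantothenate, differed by −0.44 and −0.26, and the glycerol kinase gene *GK* by −0.43 and −0.31. *ELN* (elastin) differed by −0.63 with vitamin B12 and by 0.52 without it, and *MAOA* (monoamine oxidase A) by −0.34 and 0.33. The difference between these effects was not past the threshold for any gene.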
